A study of Mus musculus with 12 samples.

Results

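The 10 genes described here encode hormones released by white adipocytes and proteins that mark these cells, and the rule that picked them lists them by name. They are Adipoq, Lep, Retn, Cfd and Rbp4, whose products are secreted, Pparg, a transcription factor, and Plin1, Cidec, Fabp4 and Car3, whose products work on or near stored lipid or in the cytosol. All 10 were among the 22923 gene symbols of the expression files, each listed once, and all 10 passed the filter on low values. The tissue was the proximal hind limb muscle of FVB males aged 22 weeks. The 12 libraries were 3 each of WT mice and of mice lacking αB-crystallin and HspB2 (KO), on either normal chow (chow-fed) or a high fat diet (fat-fed). The KO removes both chaperone genes from every tissue, so an effect of one cannot be told apart from an effect of the other, and the titles call the WT libraries Flox, a name that the methods do not explain. Levels are in FPKM, fragments scaled to transcript length and library size, and a log2 difference is on the scale of log2(FPKM + 1).

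White adipocytes store triglyceride in a single large droplet and release protein hormones, the adipokines. Adiponectin, encoded by Adipoq, raises insulin sensitivity in liver and muscle, leptin signals the size of the fat stores to the brain, and resistin, encoded by Retn, opposes insulin action in mice. Adipsin, encoded by Cfd, is complement factor D, the protease that starts the alternative complement pathway. Fat lies around and between the muscles of the hind limb, and in a bulk sample fewer adipocytes and less RNA per adipocyte cannot be told apart.

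Promoter windows of 300 bases, from 250 before to 50 after a listed start site, were found in the RefSeq table of GRCm38.p6. They covered 8 of the 10 genes, in 12 windows, and a gene can have more than 1 start site. Fabp4 and Car3 had no entry. The 4 windows below that hold a C/EBP palindrome, TTGNNCAA, are shown for the place of that motif, and the window of Cfd for the diet difference of Cfd at equal Adipoq level. Retn and Rbp4, whose levels also followed Adipoq closely, have no palindrome in their windows. Each is written 5′ to 3′ on the strand of the gene, with the palindrome in capitals.
Adipoq promoter, chr16:23146286-23146585, plus strand: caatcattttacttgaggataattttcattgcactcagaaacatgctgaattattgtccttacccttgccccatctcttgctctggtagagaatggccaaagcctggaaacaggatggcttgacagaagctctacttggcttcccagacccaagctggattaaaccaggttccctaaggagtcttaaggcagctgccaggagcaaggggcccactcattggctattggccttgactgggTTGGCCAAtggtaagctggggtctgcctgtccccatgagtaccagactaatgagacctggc
Lep promoter, chr6:29059971-29060270, plus strand: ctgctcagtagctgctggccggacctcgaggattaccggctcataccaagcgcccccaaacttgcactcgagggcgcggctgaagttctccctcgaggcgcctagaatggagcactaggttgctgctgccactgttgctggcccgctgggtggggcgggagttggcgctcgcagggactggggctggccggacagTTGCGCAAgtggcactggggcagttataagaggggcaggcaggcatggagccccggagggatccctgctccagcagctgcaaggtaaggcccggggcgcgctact
Plin1 promoter, chr7:79732727-79733026, minus strand: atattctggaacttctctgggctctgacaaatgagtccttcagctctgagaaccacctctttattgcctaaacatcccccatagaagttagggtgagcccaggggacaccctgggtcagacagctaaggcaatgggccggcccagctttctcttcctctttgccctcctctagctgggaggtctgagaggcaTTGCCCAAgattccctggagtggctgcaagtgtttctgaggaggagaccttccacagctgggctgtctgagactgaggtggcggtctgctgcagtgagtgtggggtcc
Cidec promoter, chr6:113434715-113435014, minus strand: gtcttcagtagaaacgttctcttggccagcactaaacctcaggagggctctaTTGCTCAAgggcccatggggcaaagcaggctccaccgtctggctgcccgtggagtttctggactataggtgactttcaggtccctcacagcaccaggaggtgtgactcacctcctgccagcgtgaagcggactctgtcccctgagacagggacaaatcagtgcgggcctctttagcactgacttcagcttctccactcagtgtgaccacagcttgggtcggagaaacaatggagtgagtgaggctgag
Cfd promoter, chr10:79890603-79890902, plus strand: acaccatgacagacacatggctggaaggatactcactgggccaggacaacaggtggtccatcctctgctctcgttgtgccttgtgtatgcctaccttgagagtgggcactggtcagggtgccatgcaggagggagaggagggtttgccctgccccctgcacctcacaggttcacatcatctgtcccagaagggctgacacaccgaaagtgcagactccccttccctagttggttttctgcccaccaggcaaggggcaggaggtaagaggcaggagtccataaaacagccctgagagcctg
The palindrome lies at positions -11 to -4 from the start site in Adipoq, -55 to -48 in Lep, -58 to -51 in Plin1 and -198 to -191 in this window of Cidec. The shown window of Cidec lies within the annotated span of the gene, 113424634 to 113435760. The other window of Cidec, chr6:113435711-113436010 at the outer end of that span, holds no palindrome. It was found in 4 of the 12 windows and in 6.4% of 32851 windows of all genes. The direct repeat bound by PPARG with RXRA, searched as AGGTCA repeated with 1 base of any kind between the repeats on both strands, was in 0 of the 12 windows and in 0.0396% of all. A single AGGTCA was in 2 windows, both of Pparg, against 16.3% of all windows, and the TATA box TATAAA was in 1 window of Rbp4 and 1 of Pparg, against 13.6%. The 5 shown windows hold no other match to these letters, and that of Cfd holds none at all.

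In the GENCODE M21 annotation of GRCm38, Adipoq lies on chromosome 16 from 23146536 to 23158028, Lep on chromosome 6 from 29060220 to 29073877, and Cfd on chromosome 10 from 79890853 to 79892655, all on the plus strand. Plin1 spans 79720218 to 79732903 of chromosome 7 and Cidec 113424634 to 113435760 of chromosome 6, both on the minus strand. Of the 10 genes, Pparg alone overlapped another annotated gene, an antisense gene that is not listed in the expression files.

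Cryab, which encodes αB-crystallin, lay between 412 and 837 FPKM in the 6 WT libraries and between 0.845 and 1.75 FPKM in the 6 KO libraries, as the titles have it, whereas the genotype tag of 6 samples contradicts their titles. Libraries correlated with each other at a Spearman rho of 0.955 to 0.987 and differed in relative depth by up to 1.35 times, as read from the steps between low values. The fibre gene Ckm, creatine kinase of muscle, lay between 13276 and 25896 FPKM. The fibre genes Myh4 in all libraries and Acta1 in 2 are listed at 0, so a 0 in these files can be a failed estimate, and no value of the 10 genes was 0.

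Adipoq measured 21.2, 116 and 93.8 FPKM in the 3 chow-fed WT mice, 1.40, 28.9 and 94.8 FPKM in the 3 fat-fed WT mice, 224, 106 and 195 FPKM in the 3 chow-fed KO mice, and 112, 91.7 and 125 FPKM in the 3 fat-fed KO mice. The ranges of the groups overlapped one with the next, and the highest library stood 160 times above the lowest, replicate 1 of the fat-fed WT mice. Mean levels ran from chow-fed KO mice (175 ± 61.4 FPKM, SD, n = 3) through fat-fed KO mice (109 ± 16.6) and chow-fed WT mice (77.1 ± 49.7) to fat-fed WT mice (41.7 ± 48.0). Only the first step of that order exceeded the larger of both SDs.

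Leptin transcripts followed another order. Lep was at 3.43, 26.5 and 30.8 FPKM in chow-fed WT mice, 0.316, 15.4 and 50.6 FPKM in fat-fed WT mice, 42.6, 15.1 and 11.8 FPKM in chow-fed KO mice, and 69.0, 63.3 and 93.4 FPKM in fat-fed KO mice. All 3 fat-fed KO mice lay above all other libraries, while the other 3 groups overlapped. The means were 75.2 ± 16.0 FPKM in fat-fed KO mice and 20.2 to 23.2 FPKM in the other groups, which did not differ beyond their SD.

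Retn, the resistin gene, read 7.62, 49.4 and 48.0 FPKM in chow-fed WT mice, 0.303, 7.44 and 28.3 FPKM in fat-fed WT mice, 110, 50.0 and 135 FPKM in chow-fed KO mice, and 47.7, 53.2 and 56.0 FPKM in fat-fed KO mice. On each diet the KO mice lay above the WT mice, and between diets the groups of each genotype overlapped. Its highest and lowest libraries differed 445 times.

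Of the 10 genes Cfd spread most, with 480 times between its highest and lowest libraries. Cfd reached 69.1, 469 and 328 FPKM in chow-fed WT mice, 2.77, 24.6 and 115 FPKM in fat-fed WT mice, 1196, 577 and 1329 FPKM in chow-fed KO mice, and 112, 59.9 and 98.5 FPKM in fat-fed KO mice. chow-fed KO mice were above every other library. The mean of the KO mice was 1034 ± 401 FPKM on normal chow and 90.2 ± 27.2 FPKM on high fat diet (n = 3 each), and their ranges did not overlap.

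Rbp4, the retinol carrier of plasma, is made mainly by liver and also by adipocytes. Its values were 5.93, 21.2 and 23.1 FPKM in chow-fed WT mice, 1.73, 5.88 and 14.1 FPKM in fat-fed WT mice, 46.3, 23.9 and 37.9 FPKM in chow-fed KO mice, and 16.4, 16.5 and 16.7 FPKM in fat-fed KO mice. KO mice lay above WT mice on each diet, and in KO mice the high fat diet group lay below the normal chow group.

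**Figure D1:**
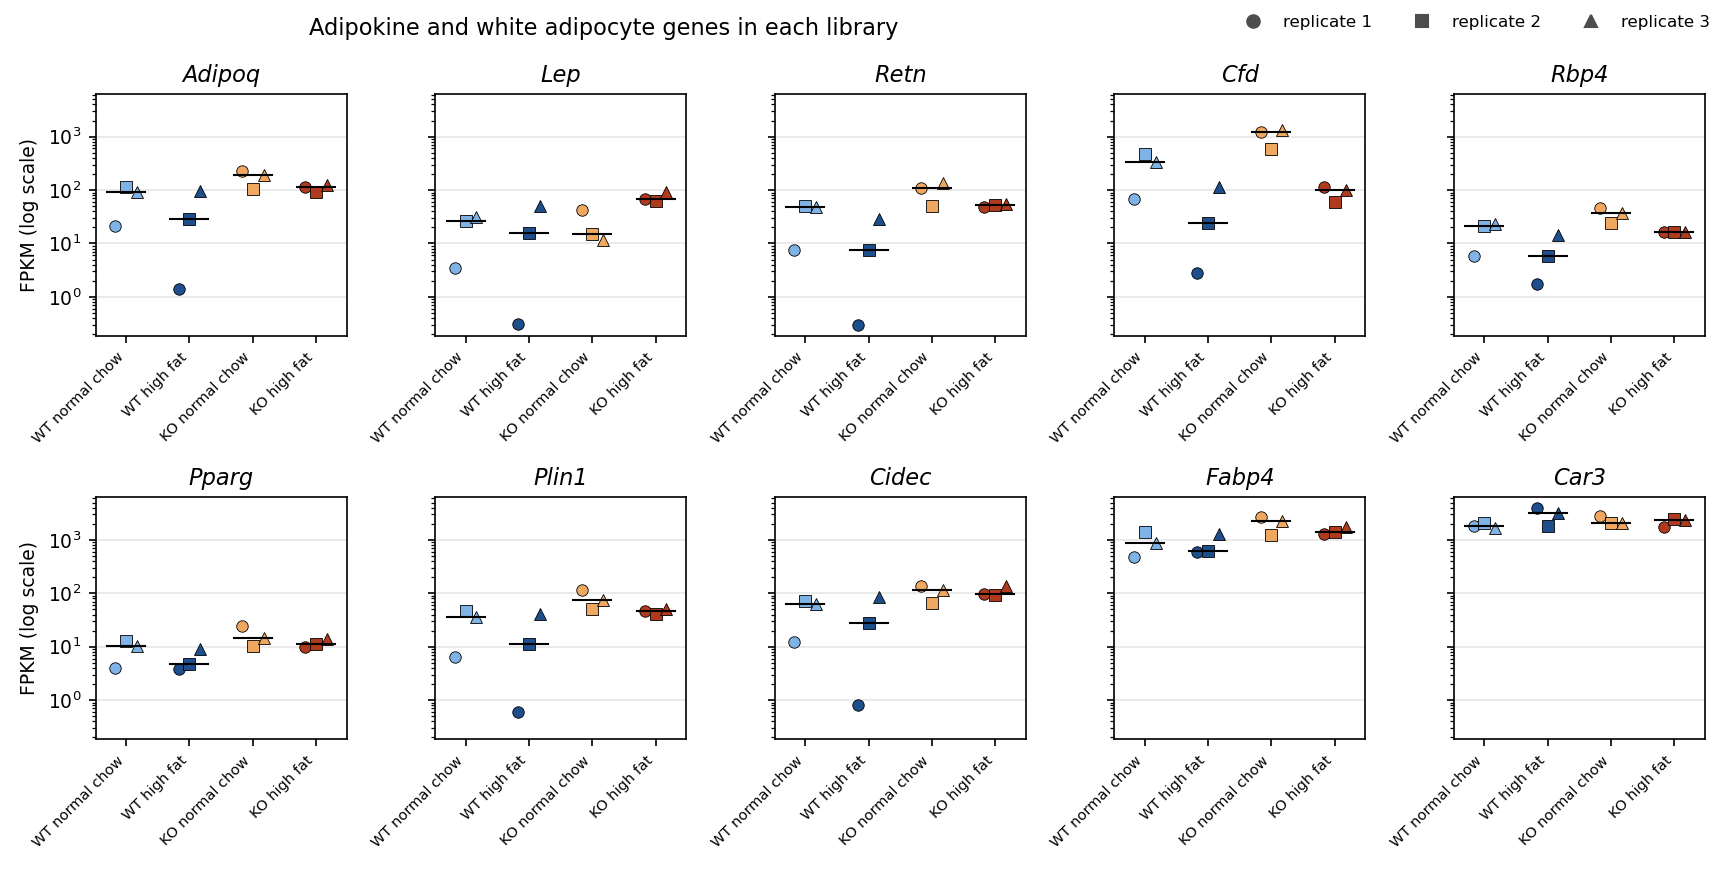
Level of each of the 10 genes in each of the 12 libraries, in FPKM on a log scale, with 1 panel a gene, 1 colour a group and 1 marker shape a replicate number; the black line is the median of the 3 libraries of a group. Replicate 1 of the fat-fed WT mice holds the lowest value in 8 panels and the highest in that of Car3, 3915 FPKM.

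Plin1 coats the lipid droplet and restrains lipolysis, and Cidec fuses droplets into a larger one. Plin1 was at 6.53, 46.3 and 36.7 FPKM in chow-fed WT mice, 0.609, 11.2 and 40.8 FPKM in fat-fed WT mice, 114, 51.3 and 76.2 FPKM in chow-fed KO mice, and 47.2, 40.2 and 51.6 FPKM in fat-fed KO mice. Cidec was at 12.2, 70.8 and 63.8 FPKM, 0.802, 27.3 and 83.9 FPKM, 136, 65.5 and 117 FPKM, and 98.7, 92.8 and 138 FPKM in the same order of groups. Both were lowest in the library that was lowest for Adipoq. KO mice lay above WT mice without overlap for Plin1 on normal chow and for Cidec on high fat diet.

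Pparg, the regulator that drives adipocyte differentiation, and Fabp4, a carrier of fatty acids in adipocytes, macrophages and capillary endothelium, spread less. Pparg lay between 3.80 and 24.3 FPKM and Fabp4 between 483 and 2690 FPKM, a range of 6.39 and 5.57 times. In replicate 1 of the fat-fed WT mice, Pparg was at 36.1% and Fabp4 at 44.4% of the median of the other 11 libraries, where Adipoq was at 1.32%, Lep at 1.03%, Retn at 0.613%, Cfd at 2.40%, Plin1 at 1.31%, Cidec at 0.955% and Rbp4 at 10.4%. Car3, a carbonic anhydrase abundant in adipocytes and also in slow muscle fibres, went the other way and stood at 190% of that median. Its 12 values lay between 1689 and 3915 FPKM. Some muscle fibre genes also stood apart in that library. The myosin Myh1 was at 1393 FPKM against 397 to 828 FPKM elsewhere, and the myoglobin gene Mb at 6173 FPKM against 1552 to 3894 FPKM. Myh7, the myosin of slow fibres, was at 3.20 FPKM against 16.9 to 138 FPKM. Acta1 and Atp2a1 were also highest there, at 35165 and 15046 FPKM against at most 34031 and 13902 FPKM elsewhere. Ckm (21895 FPKM), Tnnt3 (15789 FPKM), Ttn (92.2 FPKM) and Myh2 (204 FPKM) lay within the range of the other libraries. The part of muscle fibre genes in the results that rest on this library was not tested.

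Across the 12 libraries, the level of 8 of the other 9 genes correlated positively with that of Adipoq. On log2(FPKM + 1), Pearson's r with Adipoq was 0.992 for Plin1, 0.983 for Cidec, 0.981 for Retn, 0.951 for Rbp4, 0.872 for Cfd, 0.868 for Pparg, 0.816 for Lep and 0.812 for Fabp4. Spearman's rho was 0.965, 0.867, 0.832, 0.811, 0.804, 0.895, 0.427 and 0.867 in the same order. Permutation tests, two-sided with 100000 permutations and adjusted over the 9 relations, gave p from 4.5e-05 to 0.00534 for these r, and from 9e-05 to 0.00336 for rho except for Lep, whose rho had an adjusted p of 0.19. The smallest p before adjustment, 1e-05, is the smallest that these permutations can give. Car3 did not follow, with r = -0.415 and rho = 0.0629 (adjusted permutation p = 0.173 and 0.851). Without the 2 libraries farthest from the median of Adipoq, both replicates 1 of WT mice, r stayed between 0.814 and 0.989 for 7 genes and dropped to 0.171 for Lep, whose relation across all groups rests on those libraries. After the mean of each group was subtracted, r was 0.961 for Lep, 0.981 for Cfd and 0.998 for Cidec, between 0.954 and 0.991 for Retn, Rbp4 and Plin1, and lower than before for Pparg (0.761) and Fabp4 (0.738). The plot of 8 genes against Adipoq shows the diets as separate bands for Cfd.

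**Figure D2:**
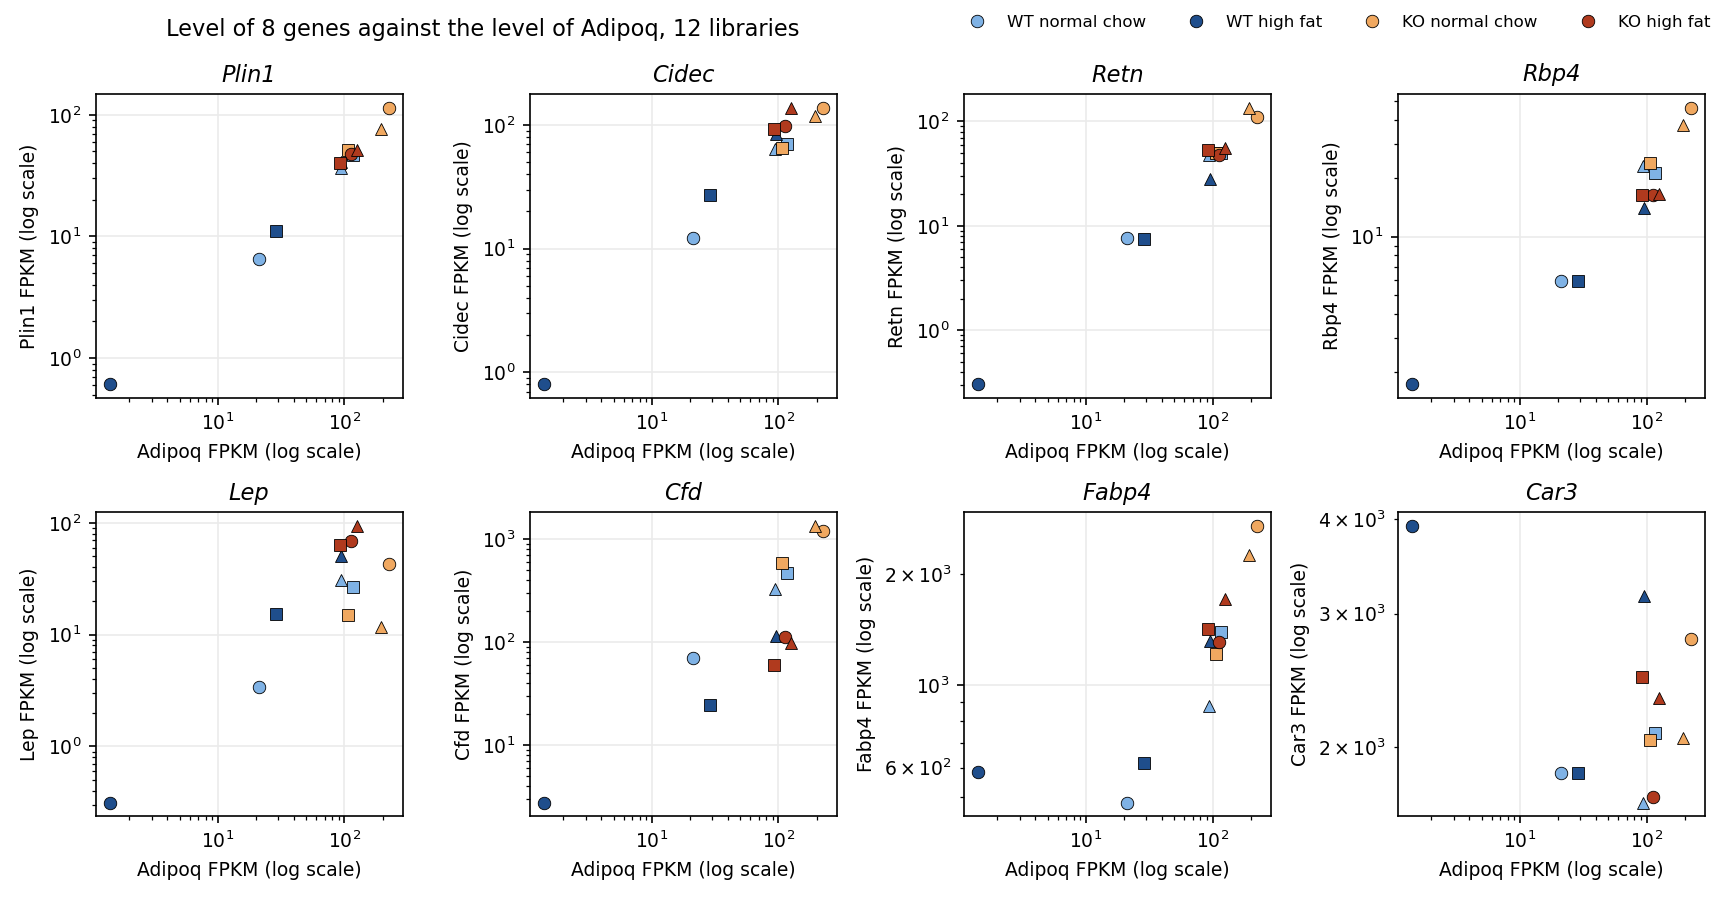
Level of 8 genes against the level of Adipoq in 12 libraries, both in FPKM on log scales, 1 point a library, coloured by group with the marker shape for the replicate number. Points of Plin1 lie on 1 line (r = 0.992), those of Cfd form a band for each diet, and those of Car3 follow no line (r = -0.415).

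The 10 other tested genes with the highest r to Adipoq over the 12 libraries were Cdo1 (0.987), Orm1, Scd1, Tmem45b, Glb1l2, 2400009B08Rik, Ccdc80, Trf, Ifi27l2a and Cebpa (0.966). Cdo1, a cysteine dioxygenase, Orm1, an acute phase protein, Scd1, a fatty acid desaturase, and Cebpa, a partner of PPARG in adipocytes, are on the list of 25 other white adipocyte genes. Of the 24 genes of that list that were tested, 16 were among the 500 genes of highest r, of 11944 ranked. In those 500 also stood 8 of the 9 other members. The 100 genes of highest r held 10 genes of the list and 4 members. Slc2a4, the insulin-dependent glucose transporter of muscle and fat, had r = -0.651, and Gpd1, Acsl1, Pnpla2 and Cd36, which muscle fibres also express, had r from -0.0628 to 0.373.

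Diet was compared within each genotype by limma over 11945 genes. In WT mice the log2 difference of high fat diet minus normal chow was -1.72 ± 1.07 (SE) for Adipoq, -2.02 ± 0.98 for Retn, -3.30 ± 1.04 for Cfd, -0.60 ± 1.15 for Lep and 0.60 ± 0.25 for Car3. The median of the 10 genes was -1.26, against -0.01 for all genes tested. None of the 10 passed an adjusted p of 0.05 (lowest 0.32, that of Cfd), where 0.1% of all genes did, and at an unadjusted p under 0.05 the count was 1 lower gene, Cfd, against 3.7% of all, and 1 higher gene, Car3, against 4.42%. Without replicate 1 of the fat-fed WT mice the median of the 10 was -0.15, and the difference of Lep was 0.89 in place of -0.60.

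In KO mice the diet difference was -3.46 ± 1.04 for Cfd and 1.85 ± 1.15 for Lep, on means 0.0873 and 3.25 times those on normal chow. Adipoq (-0.61 ± 1.07) and Retn (-0.79 ± 0.98) differed by less than their standard errors in this fit. Its errors are pooled over all groups, WT mice included. By limma none of the 10 genes passed the adjusted threshold (Cfd adjusted p = 0.39), and 0% of all genes did. The unadjusted count was 1, Cfd, against 4.73% of all genes that were lower. Ranges did not overlap for Lep, higher on high fat diet as were 10.7% of all genes, nor for Cfd and Rbp4, lower as were 6.14%. A fit on the 2 KO groups alone gave Cfd the same difference with an adjusted p of 0.0415. The share of all genes called in that fit is not given. There Adipoq and Retn kept their differences, with smaller standard errors of 0.27 and 0.33. Both differences exceeded these errors, and neither gene passed the adjusted threshold (limma, adjusted p = 0.469 and 0.461).

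KO and WT mice were then compared on each diet. On normal chow the log2 difference of KO minus WT was above 0 for all 10 genes, with a median of 1.30 against -0.03 over all genes tested, 2.14 ± 1.04 for Cfd, 1.70 ± 0.99 for Plin1, 1.42 ± 1.07 for Adipoq and 1.21 ± 0.58 for Rbp4. None passed the adjusted threshold of limma (0.0586% of all genes did), and 1 higher gene, Fabp4, had an unadjusted p under 0.05, against 6.73% of all. Ranges did not overlap for 4 genes, Retn, Cfd, Rbp4 and Plin1, as for 8.15% of all genes in that direction. Without replicate 1 of the chow-fed WT mice the median was 0.65.

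On high fat diet the difference was 2.53 ± 1.07 for Adipoq, 2.86 ± 1.15 for Lep, 2.96 ± 0.98 for Retn, 2.74 ± 1.13 for Cidec, 1.98 ± 1.04 for Cfd and 1.42 ± 0.58 for Rbp4. The median of the 10 genes was 2.16, against -0.01 over all genes tested. Again 0 of the 10 passed the adjusted threshold of limma (lowest 0.168, that of Retn), which 0.109% of all genes did, and 7 had an unadjusted p under 0.05, all higher in KO mice, against 9.79% of all genes. In 5 genes, Lep, Retn, Rbp4, Pparg and Cidec, the KO range lay above the WT range, as for 13% of all genes. The size rested on 1 library, since without replicate 1 of the fat-fed WT mice the median was 0.91 and Adipoq differed by 1.03. The interaction of diet and genotype was 2.45 ± 1.62 for Lep, and for the 10 genes the adjusted p was at least 0.843, with 0 genes at an unadjusted p under 0.05, against 6.25% of all, and 0% of all genes past the adjusted threshold of limma. Diet differences were thus not shown to differ between genotypes.

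Averaged over genotypes, the diet difference was -3.38 ± 0.74 for Cfd (unadjusted p = 0.000787, adjusted p = 0.134), -1.40 ± 0.69 for Retn, -1.17 ± 0.76 for Adipoq and 0.63 ± 0.81 for Lep. By limma 0 of 10 genes passed the adjusted threshold, against 0.0586% of all, and Cfd and Rbp4 had an unadjusted p under 0.05, against 5.94% of all genes that were lower. Averaged over diets, the difference of KO minus WT was 2.34 ± 0.69 for Retn, 2.06 ± 0.74 for Cfd, 2.06 ± 0.80 for Cidec, 2.02 ± 0.70 for Plin1, 1.97 ± 0.76 for Adipoq, 1.63 ± 0.81 for Lep, 1.31 ± 0.41 for Rbp4, 1.06 ± 0.30 for Fabp4 and 0.89 ± 0.29 for Pparg. The adjusted p of these 9 genes lay between 0.0752, that of Fabp4, and 0.222, that of Lep, so that 0 of 10 were called where 0.862% of all genes were, and 8 of 10 had an unadjusted p under 0.05, all higher in KO mice, against 13.1% of all genes. Levels of most of these genes rise and fall together across libraries, so such counts, here and on each diet, are not of independent genes. Without replicate 3 of the fat-fed WT mice, 5 of the 10, Retn, Cfd, Rbp4, Plin1 and Fabp4, passed at adjusted p from 0.0398 to 0.045. Fabp4 alone passed without replicate 2 of the chow-fed WT or chow-fed KO mice. The share of 0.862% belongs to the fit on all 12 libraries, and the share of all genes called in these refits is not given. Of 9 muscle fibre genes tested in the same comparison 0 passed, and 2 had an unadjusted p under 0.05, Myh1 and Mb, both lower in KO mice, against 13.4% of all genes. Acta1 is among the 9, and its values of 0 in replicate 1 of the chow-fed WT and replicate 2 of the fat-fed KO mice can be failed estimates.

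Since Adipoq differed 160 times between libraries, the other 9 genes were compared at equal Adipoq level, with log2(Adipoq FPKM + 1) as a covariate in the fit over 11944 genes. The slope on Adipoq passed an adjusted p of 0.05 for 6 of the 9 genes, all positive, against 1.42% of all genes. It was 1.05 for Cidec, 1.03 for Lep, 0.95 for Cfd, 0.91 for Plin1, 0.89 for Retn and 0.51 for Rbp4, and a slope of 1 is a change in proportion to Adipoq. The slope was 0.29 for Fabp4, 0.28 for Pparg and -0.06 for Car3, which did not pass.

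At equal Adipoq level, 3 of 9 genes differed between diets by limma, where 0.368% of all genes did. Cfd fell by 2.27 on the log2 scale on high fat diet (SE 0.17, adjusted p = 0.000639). Lep rose by 1.83 (SE 0.26, adjusted p = 0.0186) and Cidec by 0.63 (SE 0.07, adjusted p = 0.0102). The call of Cfd held under every alternative, with adjusted p of at most 0.0314, whereas those of Lep and Cidec each rested on single libraries. Without replicate 3 of the fat-fed WT mice the adjusted p was 0.202 for Lep and 0.115 for Cidec, and without replicate 1 of the chow-fed WT mice it was 0.101 and 0.0553. Lep was also lost without replicate 2 of the fat-fed WT mice (0.0601) or replicate 3 of the fat-fed KO mice (0.0526), and Cidec with Plin1 in place of Adipoq (0.199). Of the rest, Rbp4 differed by -0.53 (adjusted p = 0.237), Retn by -0.36 (0.581), and Plin1, Pparg, Fabp4 and Car3 by -0.11 to 0.19. In the plot of averaged differences the covariate also narrows the errors, from 0.74 to 0.17 for Cfd.

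**Figure D3:**
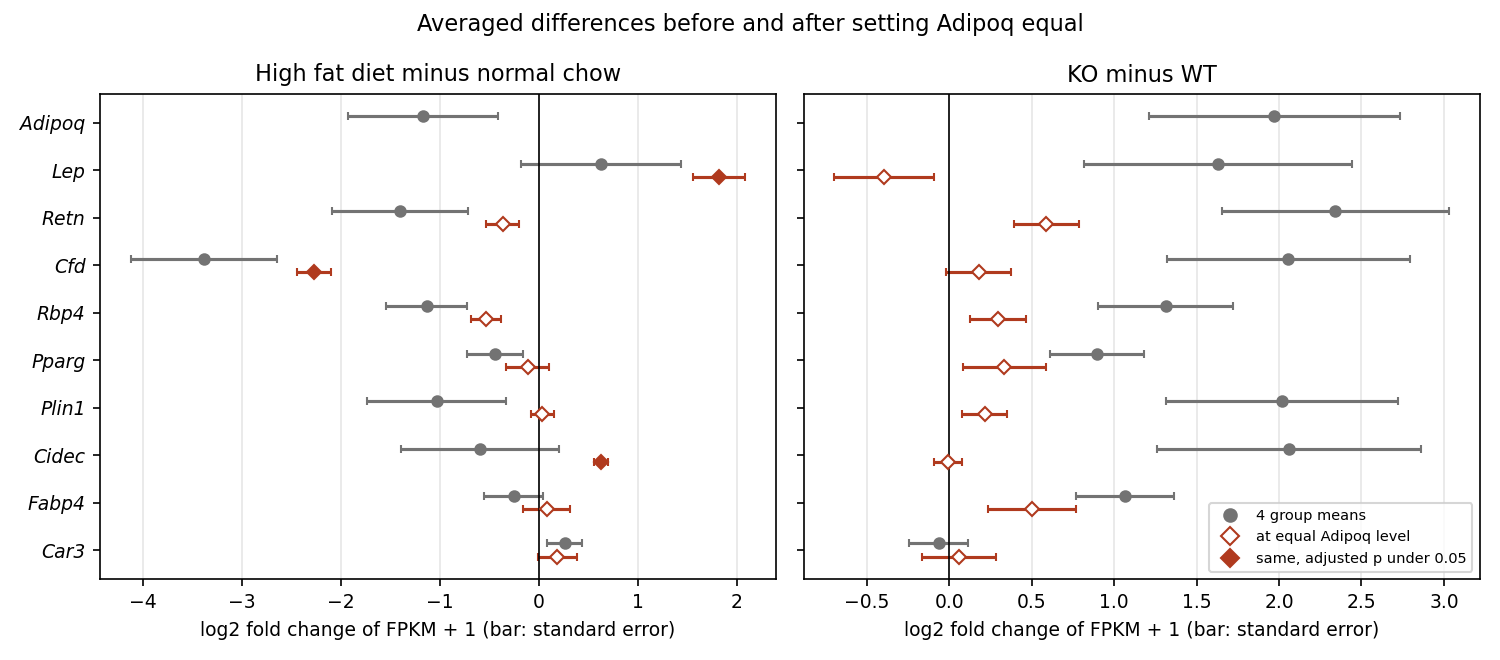
Averaged differences of the 10 genes as log2 fold change of FPKM + 1, high fat diet minus normal chow on the left and KO minus WT on the right, with grey circles for 4 group means and red diamonds at equal Adipoq level, filled where the adjusted p is under 0.05; bars are standard errors. For diet, filled diamonds stand at -2.27 (Cfd), 1.83 (Lep) and 0.63 (Cidec), and for genotype no diamond is filled.

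Between genotypes, none of the 9 genes passed at equal Adipoq level (lowest adjusted p = 0.58, 0.0586% of all genes called by limma), and 1, Retn, had an unadjusted p under 0.05, with a difference of 0.59 ± 0.20, against 4.78% of all genes that were higher. The median of the 9 genes was 0.21 between genotypes, against -0.01 over all genes tested, and 0.04 between diets.

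The ratio of each gene to Adipoq within a library shows the same data without a fit. Per unit of Adipoq, Cfd stood at 3.26, 4.03 and 3.50 in chow-fed WT mice and at 5.35, 5.45 and 6.81 in chow-fed KO mice. On high fat diet it stood at 1.98, 0.851 and 1.22 in WT mice and at 1.01, 0.653 and 0.789 in KO mice. All 6 libraries on high fat diet lay below all 6 on normal chow, as they did for 0.0251% of all genes. The median ratio was 0.928 against 4.69. Lower ratios are rare for all genes because Adipoq, at 1.40 FPKM in replicate 1 of the fat-fed WT mice, raises most ratios there. Car3 per Adipoq was 2796 in that library and 10.5 to 87.3 elsewhere. By FPKM itself Cfd overlapped between the diets, and 0.268% of all genes were lower without overlap. The ratio of Cfd to Plin1 also separated the diets, at 1.49 to 4.55 on high fat diet and 8.94 to 17.4 on normal chow.

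Per unit of Adipoq, Lep was at 0.190, 0.143 and 0.0606 in chow-fed KO mice and at 0.617, 0.690 and 0.749 in fat-fed KO mice, without overlap, as for 9.68% of all genes in that direction. Chow-fed WT mice had 0.162, 0.228 and 0.328 and fat-fed WT mice 0.226, 0.534 and 0.534, where replicate 1 overlapped the normal chow range. Cidec per Adipoq was at 0.601 to 0.619 in chow-fed KO mice and 0.883 to 1.10 in fat-fed KO mice, again without overlap. Chow-fed WT mice had 0.575 to 0.680 and fat-fed WT mice 0.573, 0.945 and 0.886, so the library poorest in Adipoq had the ratio of normal chow. Plin1 per Adipoq varied little, from 0.308 to 0.510 over all 12 libraries. Retn per Adipoq was lower on high fat diet in WT mice without overlap (0.217 to 0.298 against 0.360 to 0.511, 0.0586% of all genes), and in KO mice the groups overlapped. Rbp4 per Adipoq was lower on high fat diet in KO mice (0.134 to 0.179 against 0.194 to 0.226, 0.628% of all genes). Low Adipoq on high fat diet makes lower ratios rare for all genes. By FPKM itself, 6.88% of all genes in WT mice and 6.14% in KO mice were lower on high fat diet without overlap. Between genotypes on high fat diet, Lep and Retn per Adipoq were higher in KO mice without overlap, as for 0.0586% of all genes. Car3 was lower, as for 38.4%. On normal chow Cfd was higher in KO mice, as for 0.201%, and Pparg lower, as for 19.2%. Mean Adipoq was lower in WT mice, which makes higher ratios in KO mice rare.

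**Figure D4:**
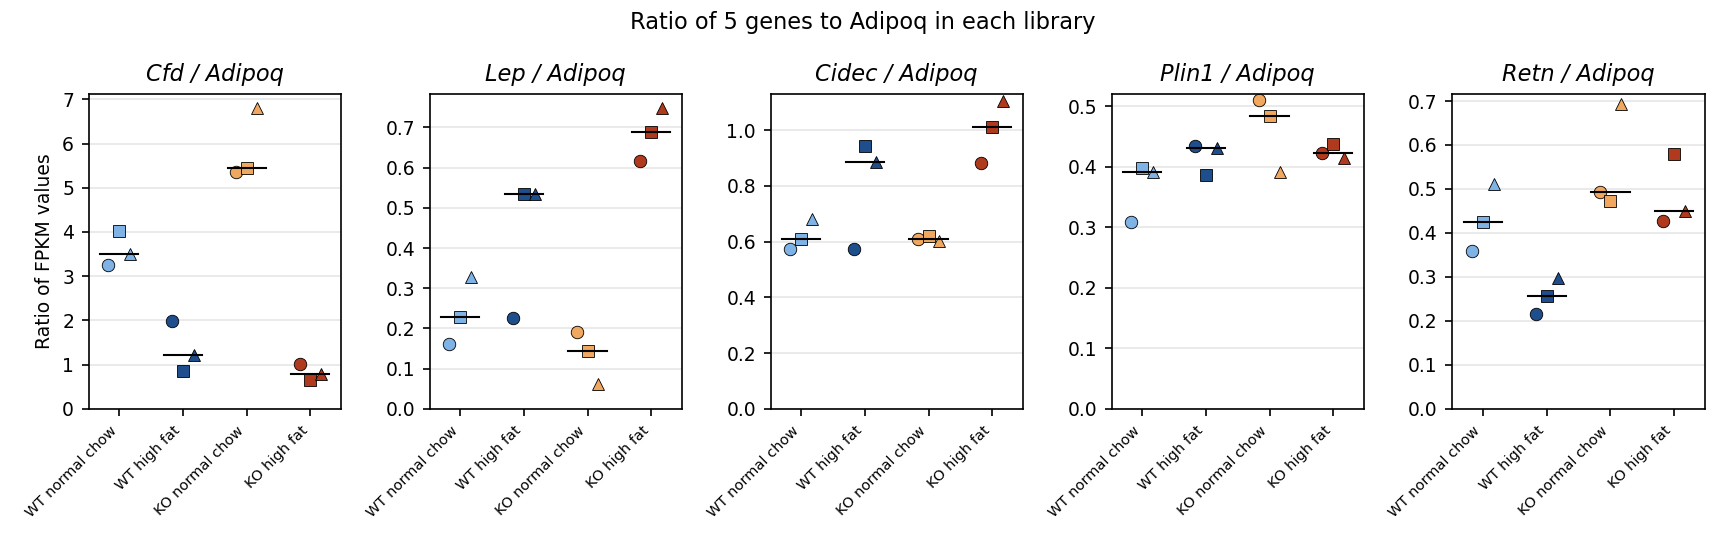
Ratio of the FPKM of 5 genes to that of Adipoq in each library, on linear axes from 0, with 1 marker shape a replicate number and a black line at the median of each group. Cfd lies at 3.26 to 6.81 on normal chow and 0.653 to 1.98 on high fat diet, and Plin1 stays between 0.308 and 0.510.

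Other genes of the same system were read from fixed lists. Of 25 other white adipocyte genes 24 were tested, and 0 passed the adjusted threshold of limma in any of the 9 comparisons. At an unadjusted p under 0.05, 20 were higher and 1, Slc2a4, lower in KO mice averaged over diets, against 13.1% and 13.4% of all genes, with a median difference of 1.19 against -0.02 over all genes tested. The slope on Adipoq passed for 13 of the 24, all positive, against 1.42% of all genes, so the count between genotypes is not of independent genes. The 4 with the highest mean were Scd1, Gpd1, Slc2a4 and Lpl. Scd1 ran from 7.31 FPKM in replicate 1 of the fat-fed WT mice to 1319 FPKM in replicate 1 of the chow-fed KO mice, whereas Gpd1, a glycerol phosphate dehydrogenase, lay between 317 and 421 FPKM.

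Among 14 other adipokines, 12 were tested and 0 passed the adjusted threshold in any of the 9 comparisons. At an unadjusted p under 0.05 by limma, 6 were higher and 1 lower in KO mice averaged over diets, against 13.1% and 13.4% of all genes. The slope on Adipoq passed for 3 of the 12, among them Hp and Rarres2, all positive, against 1.42% of all genes. Hp, haptoglobin, lay between 5.06 and 78.7 FPKM in WT mice and between 41.6 and 183 FPKM in KO mice, and Rarres2, chemerin, between 27.2 and 133 FPKM over all libraries. Nampt, the enzyme also called visfatin, lay between 32.9 and 48.5 FPKM, and Retnla, a relative of resistin, was at 26.6 FPKM in the library lowest in Adipoq and at 99.8 to 355 FPKM elsewhere. Of 9 receptors and binding proteins, 7 were tested and 0 passed in these comparisons, while the slope on Adipoq passed for 1 of the 7. The adiponectin receptors Adipor1 (166 to 265 FPKM) and Adipor2 (51.8 to 72.2 FPKM), the adiponectin-binding cadherin Cdh13 (31.2 to 44.5 FPKM) and the leptin receptor Lepr (0.445 to 1.59 FPKM) spread far less than their ligands.

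Of 12 partners and upstream regulators of PPARG, 1 passed between genotypes averaged over diets, Klf5, a Krüppel-like factor that acts early in adipocyte differentiation, with a log2 difference of 0.47 ± 0.09 (limma, adjusted p = 0.0455), where 0.862% of all genes passed. Klf5 lay at 1.45 to 2.25 FPKM in WT mice and 2.33 to 3.22 FPKM in KO mice. Of the paralogs, Fabp3, the carrier of muscle fibres, did not follow Fabp4. Fabp3 was at 311 to 491 FPKM in chow-fed WT mice, 1281 to 1878 FPKM in fat-fed WT mice, 384 to 993 FPKM in chow-fed KO mice and 731 to 1076 FPKM in fat-fed KO mice, with no adjusted p under 0.05.

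Markers of other cells moved with some of these groups. The 8 lymphoid markers, among them Cd3e and Cd79a, summed to 88.5 FPKM in replicate 2 of the chow-fed WT mice and to 106 and 102 FPKM in replicates 1 and 3 of the chow-fed KO mice, against 3.65 to 10.8 FPKM in the other 9 libraries. The brown adipocyte genes Ucp1 and Cidea were high in the same 3 libraries, at 6.67 to 16.2 and 29.8 to 49.8 FPKM. In replicate 2 of the chow-fed KO mice they were at 0.746 and 12.5 FPKM, and elsewhere at most at 0.142 and 2.66 FPKM. Of the 8 genes on that list 3 passed the filter, the third being Ebf2 (1.23 to 2.88 FPKM). Lhx8 was also highest in those 3 libraries (0.499 to 1.12 FPKM), where Elovl3 (0.279 to 0.931 FPKM) and Ebf2 overlapped the others. Zic1 was at 0 FPKM in them and highest in replicate 1 of the fat-fed WT mice (0.443 FPKM). Dio2 was highest in fat-fed WT mice (0.979 FPKM), and Prdm16 lay between 0.294 and 0.618 FPKM throughout. Without those 3 libraries, and with chow-fed KO mice represented by 1 library assumed to vary like the others, Cfd still fell by 2.16 at equal Adipoq level (adjusted p = 0.0314) and Lep rose by 1.66 (0.0314), while Cidec differed by 0.59 (0.0996). In KO mice without them, the diet differences of Adipoq and Retn were 0.0361 and 0.0608 in place of -0.61 and -0.79.

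The 4 neutrophil markers summed to 1100, 118 and 418 FPKM in fat-fed WT mice, to 1.96 to 25.2 FPKM in chow-fed WT mice and to 9.61 to 120 FPKM in KO mice. The 7 macrophage markers summed to 123 to 249 FPKM in WT mice and to 193 to 411 FPKM in KO mice, and 1 of them, Emr1, was called between genotypes (0.89 ± 0.16, limma, adjusted p = 0.0418), where 0.862% of all genes were. No gene of the lymphoid, neutrophil or macrophage list was at 0 in every library of a group. Their part in the differences of the adipocyte genes between genotypes was not tested.

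**Figure D5:**
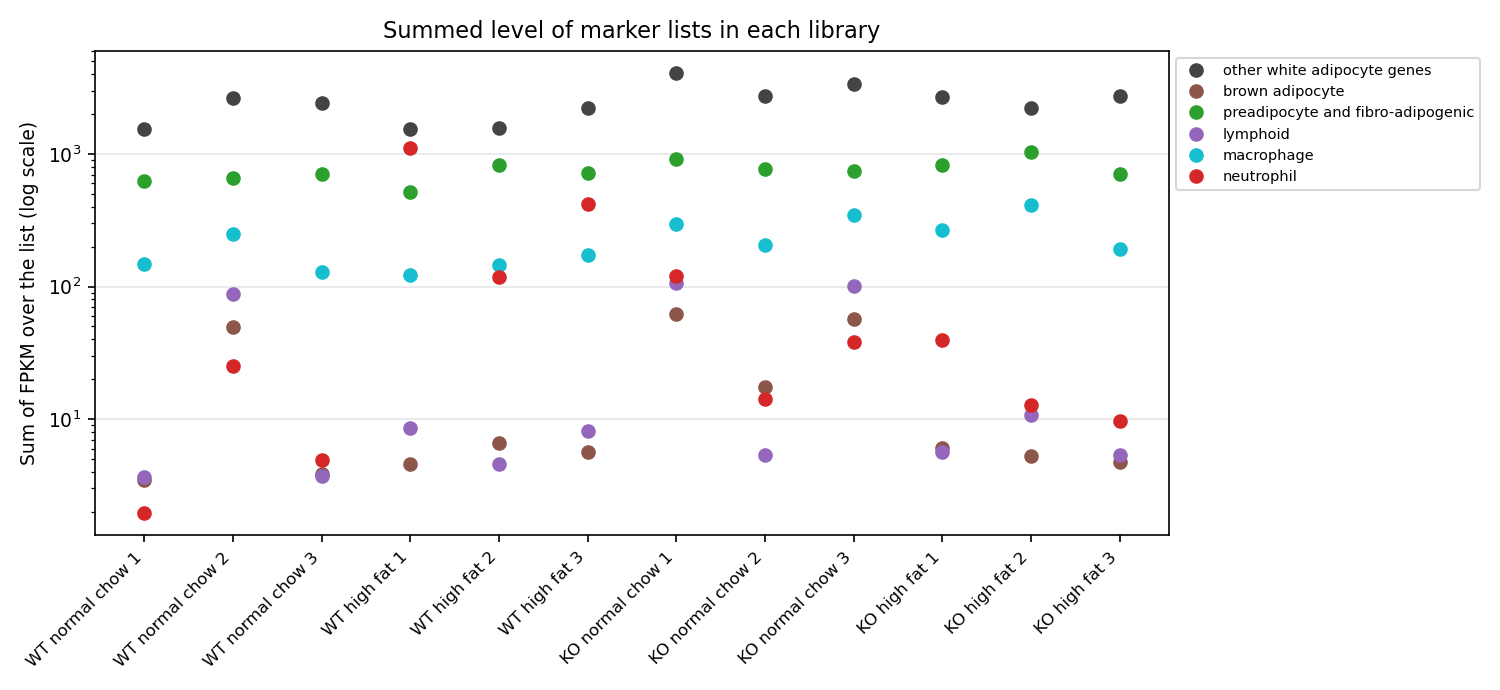
Summed FPKM of 6 marker lists in each of the 12 libraries, on a log scale, 1 colour a list. Lymphoid and brown adipocyte sums stand apart in 3 libraries of mice on normal chow (88.5 to 106 FPKM for the lymphoid list). The brown adipocyte sum there is mostly Ucp1 and Cidea. The neutrophil sum is highest, 1100 FPKM, in the library lowest in Adipoq.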

How the data were processed

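RNA-seq of 12 muscle libraries was aligned and quantified by the authors, and the submitters' processing notes name TopHat2 2.0.8b, Cuffdiff 2.1.1 and build mm10. The deposited files hold 1 FPKM value per gene symbol and library, and the authors pooled no replicates. Read depth is unknown. Of rows that repeat a symbol, that of highest mean FPKM was used. Samples were grouped by title. Genes with at least 1 FPKM in at least 3 samples (11945) were fitted as log2(FPKM + 1) using limma 3.58.1 (R 4.3.3) and a mean-variance trend, 4 group means, 8 residual degrees of freedom and Benjamini-Hochberg adjustment over all genes. For equal Adipoq level, log2(Adipoq FPKM + 1) was added as a covariate. The pseudocount of 1 understates changes of low genes. All 10 genes passed the filter, so the permutation test set for genes below it was not used. The script was tested on simulated data. Tables were handled in Python 3.11.15 with NumPy 2.4.6, pandas 2.3.3 and SciPy 1.17.1. Alternatives were a pseudocount of 0.1, no filter, the replicate number as a block, quantile normalization, only the 2 groups compared and each sample left out in turn. Plin1 as covariate and leaving out 3 lymphoid-rich libraries were added after seeing the data. Nothing says whether replicates were handled separately beyond being separate samples, and p-values measure the spread between these samples. The members and lists were chosen with earlier results of these data known. All 10 members are named, and of each list up to 4 genes of highest mean. Lepr, Klf5, Emr1, Cd3e, Cd79a, Ucp1, Cidea, Ebf2, Lhx8, Elovl3, Zic1, Dio2, Prdm16, Myh1, Myh2, Mb, Myh7, Ttn, Slc2a4, Acsl1, Pnpla2 and Cd36 were named after their values were seen. A gene of the lymphoid list is not reported here and was left out of its sums.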

Additional observations from a re-analysis of the deposited data

How the results depend on the processing

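Over 88 member differences and their alternatives, 1472 of 1552 refits kept direction and side of the threshold, and 61 changed sign, in 27 results, none of them called. At equal Adipoq level the number of members differing between diets was 3, it was 1 with the replicate number as a block (Cfd, which was called in every refit, with adjusted p = 0.101 for Lep and 0.0829 for Cidec), and 1 to 4 when single libraries were left out, with 1 without replicate 1 of chow-fed WT mice or replicate 3 of fat-fed WT mice. Same-numbered mice correlated over 0.1 in 2 of 12 pairs (-0.806 to 0.387), so the numbers are not a pairing, and the block changed no other count. Between genotypes averaged over diets the count of 0 ranged from 0 to 5 with libraries left out, 5 without replicate 3 of fat-fed WT mice. In KO mice the diet count was 1 in place of 0 with only the 2 groups compared. The diet difference of Lep in WT mice ranged from -1.76 to 0.89 over left-out libraries, and those of Adipoq and Retn in KO mice were 0.0361 and 0.0608 without the 3 lymphoid-rich libraries. Leaving out 1 library moved the median interaction of the 10 genes between -0.41 and 1.37. Beyond what the refits show, the causes were not tested. With 3 mice a group and levels that differ by up to 480 times, standard errors of the diet difference within a genotype reached 1.15 on the log2 scale (Lep).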
